A study of Mus musculus with 2 samples.

Results

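The pericyte genes described here are 10 genes used to recognise pericytes, the mural cells that wrap the capillaries: Pdgfrb, Cspg4, Kcnj8, Abcc9, Rgs5, Rgs4, Ndufa4l2, Higd1b, Mcam and Anpep. They were chosen by name, as every non-control probe whose gene name on both arrays is one of them, which gave 12 of the 39429 probes of the array design. All 10 genes are among the 20495 genes that passed a filter on dim probes. Rgs4 and Mcam have 2 probes each and the other genes have 1.

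RNA was measured in ureters mechanically dissected from mouse embryos of the NMRI strain at E14.5. The Rbpj-cKO embryos were Tbx18(cre/+);Rbpj(fl/fl), so that a Cre recombinase expressed from 1 copy of the Tbx18 locus removed the floxed Rbpj gene. The control embryos were Rbpj(fl/?), a floxed allele over a second allele that the labels leave unspecified. As written, the control genotype names no Cre, so loss of Rbpj and presence of the Tbx18(cre) allele cannot be told apart. Each of the 2 arrays held Rbpj-cKO and control RNA together, in 2 colours, from 150 ng of total RNA per labelling. Replicate 1 compared males, with Rbpj-cKO in AlexaFluor647 (red), and replicate 2 compared females, with Rbpj-cKO in AlexaFluor555 (green). Dye orientation and sex change together between the arrays and cannot be told apart. The labels do not give the number of embryos behind a channel or say whether the arrays came from separate litters. The only spread measured for a gene is therefore that between these 2 arrays. For p-values and 95% intervals, limma moderated each gene's variance toward that of all genes. With 1 residual and 5.57 prior degrees of freedom, the variance of all genes had the larger weight.

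Pericytes and vascular smooth muscle cells are recruited to growing vessels by PDGF-B from endothelial cells, which acts on PDGF receptor beta on the mural cell. Notch receptors of mural cells, above all Notch3, meet ligands such as Jag1 on the endothelium and act through Rbpj, which carries the cleaved Notch receptor to DNA. Tbx18 is made by the mesenchyme that surrounds the epithelial tube of the ureter, and by mural cells of many organs of the mouse. In whole ureters, fewer pericytes and less RNA of a gene per pericyte cannot be told apart.

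The checks of the labels came out as follows. Rbpj itself had log2 ratios of Rbpj-cKO over control of -1.13 in males and -0.63 in females by its brighter probe, and -0.48 and -0.37 by its dimmer one. Tbx18 had 0.17 and -0.24. The channel labelled female Rbpj-cKO carried Y-linked RNA: Ddx3y and Eif2s3y were at 8.04% and 8.94% of their male Rbpj-cKO signal, well above background on 4 of 4 spots each, against 0 and 2 of 4 spots in the female control. The male value is therefore given beside each gene's mean and each list's median. Across all 20495 genes the ratios of the arrays ran against each other (Pearson's r = -0.352, Spearman's rho = -0.473, across genes, which are not independent replicates), and 69.2% of genes had opposite signs. Genes of other tissues differed between the channels as well. The summed signal of 12 erythroid genes was 714344 in male and 310549 in female Rbpj-cKO, against 423946 in male and 634780 in female control, and that of 12 skeletal muscle genes was 25564.5 and 12498 in Rbpj-cKO against 12759.8 and 34558 in control. Their part in the results below was not tested.

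All 10 pericyte genes were detected in both genotypes. All 12 probes were well above background on 4 of 4 spots in both channels of both arrays, and the spots of a probe differed little, with SDs of its log2 ratio between 0.0077 and 0.087. The median log2 ratio of the 10 genes was 0.016, against -0.0033 for all genes, and it was 0.080 in males and -0.051 in females. Ndufa4l2 and Rgs4 read higher in Rbpj-cKO on both arrays, Higd1b and Anpep read lower on both, and the other 6 had opposite signs. Of all genes, 16.1% read higher on both arrays and 14.7% lower. These shares are the background for the sign counts of each list below. None of the 10 genes passed limma's test at an adjusted p under 0.05, as did none of all genes (0%), and all of the 10 had an adjusted p of 1. At an unadjusted p under 0.05 there were 2 pericyte genes, Ndufa4l2 and Rgs4, both upward, against 1.82% of all genes, 1.29% upward and 0.527% downward. A difference of at least 1.5-fold with 1 sign on both arrays was found for 0 of the 10 genes, and for 0.132% of all genes upward and 0.0634% downward. With opposite signs it was found for 0 of the 10 and for 0.717% of all genes.

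**Figure D1:**
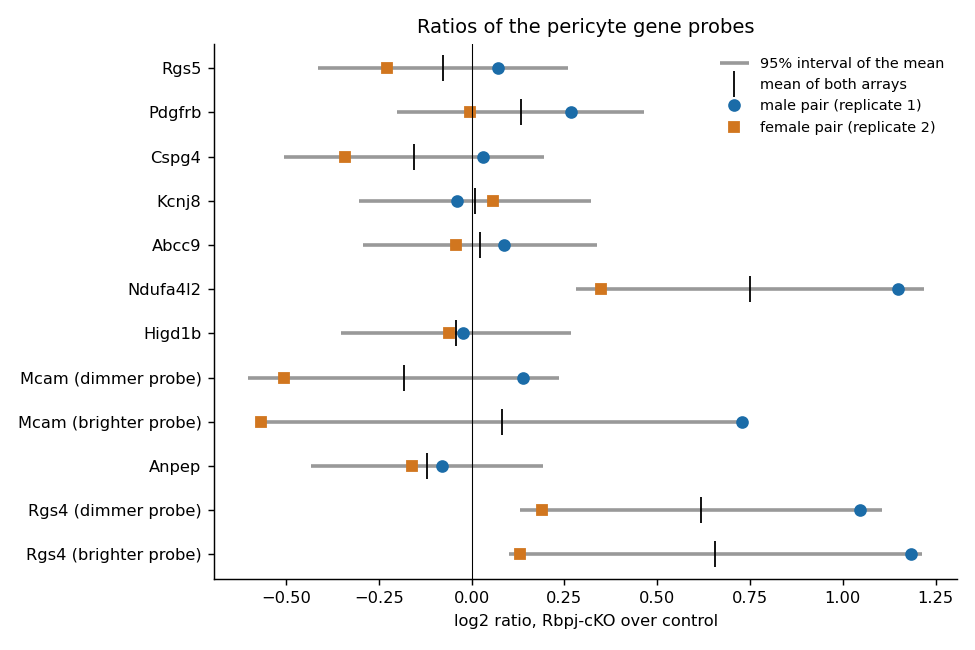
Log2 ratio of Rbpj-cKO over control for the 12 probes of the 10 pericyte genes, with a point for the male array, a point for the female array, a tick for their mean and a bar for the 95% interval of a fit per probe. Ndufa4l2 and both Rgs4 probes lie to the right of 0 on both arrays, with the male point above 1, and the points of the Mcam probes lie on either side of 0.

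The signals given below are normalized intensities of a channel, on a linear scale, and are compared only within a probe. Pdgfrb, the receptor that pericytes need to follow PDGF-B, had signals of 7152 in male and 6974 in female Rbpj-cKO ureters, against 5942 in male and 6992 in female control ureters. The male Rbpj-cKO channel was the highest and the female pair was nearly level. The log2 ratios were 0.27 and -0.0036, with a mean of 0.13 ± 0.19 (SD, n = 2 arrays) and a 95% interval of -0.20 to 0.47. Cspg4, the proteoglycan NG2 that lines the pericyte surface and binds PDGF, had 2979 and 2264 in male and female Rbpj-cKO, against 2919.7 in male and 2867 in female control. The low channel was the female Rbpj-cKO one, and the genotypes overlapped. Its log2 ratios of 0.03 and -0.34 had a mean of -0.16 ± 0.26 (SD, n = 2), with a 95% interval of -0.51 to 0.20. The probe of Cspg4 lies at chr9:56746627-56746686 on the plus strand of mm9, the build of the array's annotation.

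Around the receptor, 14 of 15 genes of PDGF and angiopoietin signalling were measured. Of these, 4 read higher and 4 lower on both arrays, 0 passed the test, and the median was 0.017 (0.063 in males and -0.0096 in females). Pdgfb, the endothelial ligand itself, had log2 ratios of 0.11 in males and -0.15 in females. Pdgfra, the sister receptor of fibroblasts and mesenchyme, read lower on both, at -0.20 and -0.55, and Pdgfc, a ligand of that receptor, read higher, at 0.18 and 0.45. Angpt1, the mural cell ligand of the endothelial receptor Tek, had 0.21 and 0.38, while Tek had -0.14 and -0.39. These 4 genes lay the furthest from 0 among those of the list with 1 sign on both arrays, and each had an adjusted p of 1 (limma).

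Kcnj8 and Abcc9 encode the pore Kir6.1 and the regulatory subunit SUR2 of the ATP-sensitive potassium channel of mural cells, which sets their membrane potential. Kcnj8 had signals of 363 and 319.9 in male and female Rbpj-cKO, against 373 in male and 307 in female control. Abcc9 had 1266 and 1144 in male and female Rbpj-cKO, against 1191 in male and 1178 in female control. For both genes the male channels were the brighter and the genotypes overlapped. The log2 ratios were -0.04 and 0.06 for Kcnj8 and 0.09 and -0.04 for Abcc9. The means were 0.0091 ± 0.068 for Kcnj8 and 0.02 ± 0.09 for Abcc9 (SD, n = 2), the nearest to 0 of the 10 genes. The 95% intervals, -0.31 to 0.32 and -0.29 to 0.34, still allow a difference of more than 0.2 either way. Of the other channel subunits, Abcc8, known from neurons and beta cells, had 0.06 and -0.08, and Kcnj11 did not pass the filter on dim probes.

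Kcnj8 and Abcc9 are neighbours on chromosome 6 with 0 genes between them, and Rgs4 and Rgs5 are neighbours on chromosome 1 with 0 genes between them, in RefSeq's annotation of GRCm38.p6. The windows of 250 bases before the start of these 4 genes are shown because each pair shares its surroundings and the deleted gene encodes a DNA-binding protein. TGGGAA, the core of the sequence that Rbpj is known to bind, was searched on both strands (as TGGGAA and TTCCCA), and capitals mark it. The windows are from RefSeq, GRCm38.p6, each given 5′ to 3′ on the gene's own strand: Kcnj8 at chr6:142571615-142571864 (minus), Abcc9 at chr6:142702275-142702524 (minus), Rgs5 at chr1:169655251-169655500 (plus) and Rgs4 at chr1:169747643-169747892 (minus).
Kcnj8: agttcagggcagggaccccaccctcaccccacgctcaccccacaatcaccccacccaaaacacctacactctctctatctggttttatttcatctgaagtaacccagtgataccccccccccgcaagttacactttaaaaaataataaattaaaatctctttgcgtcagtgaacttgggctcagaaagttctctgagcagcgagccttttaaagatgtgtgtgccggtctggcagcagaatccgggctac
Abcc9: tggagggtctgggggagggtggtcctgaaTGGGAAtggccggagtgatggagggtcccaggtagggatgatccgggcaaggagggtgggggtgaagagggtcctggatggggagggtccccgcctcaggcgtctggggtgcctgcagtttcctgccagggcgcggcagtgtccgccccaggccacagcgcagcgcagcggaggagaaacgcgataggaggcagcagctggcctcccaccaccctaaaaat
Rgs5: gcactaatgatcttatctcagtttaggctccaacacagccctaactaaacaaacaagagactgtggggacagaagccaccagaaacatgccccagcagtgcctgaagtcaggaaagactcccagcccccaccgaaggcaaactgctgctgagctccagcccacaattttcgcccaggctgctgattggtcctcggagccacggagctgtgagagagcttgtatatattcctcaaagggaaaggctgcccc
Rgs4: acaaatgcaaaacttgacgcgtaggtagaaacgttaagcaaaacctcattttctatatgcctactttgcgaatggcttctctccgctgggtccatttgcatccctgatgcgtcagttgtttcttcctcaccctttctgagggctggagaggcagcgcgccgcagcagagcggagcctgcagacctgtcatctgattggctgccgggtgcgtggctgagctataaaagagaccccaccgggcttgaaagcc
Of the 7 pericyte genes with a window in the table, 1 held the core, Abcc9, at base -221 from its start. Of all 32851 promoter windows of this length, 21.6% held it. A match in a window is a description of its letters.

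Rgs5 and Rgs4 encode regulators of G protein signalling, which shut off the G proteins that contract mural cells. Rgs5 is among the most used pericyte markers, and Rgs4 is also known from neurons. Rgs5 had signals of 4033 and 3937 in male and female Rbpj-cKO, against 3839 in male and 4608 in female control. The female control channel was the highest and the genotypes overlapped. The log2 ratios were 0.07 and -0.23, with a mean of -0.08 ± 0.21 (SD, n = 2) and a 95% interval of -0.42 to 0.26. Its probe lies at chr1:171623021-171623080 (mm9, plus strand).

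Rgs4, the neighbour of Rgs5, had a different pattern. Its brighter probe, at chr1:171672488-171672547 (mm9, minus strand), had signals of 1487 in male and 588 in female Rbpj-cKO, against 655 in male and 537 in female control. Its dimmer probe, at chr1:171671609-171671668, had 514 in male and 204 in female Rbpj-cKO, against 249 in male and 179 in female control. By both probes the male Rbpj-cKO channel stood far above the other 3, and the female Rbpj-cKO channel lay between both controls. The brighter probe gave 2.27-fold in males and 1.09-fold in females, and the dimmer 2.07-fold and 1.14-fold. The mean log2 ratio was 0.66 ± 0.74 by the brighter and 0.62 ± 0.61 by the dimmer probe (SD, n = 2), so the SD between the arrays was about as large as the mean. The 95% interval of the gene's fit was 0.07 to 1.24, and 85 of 20495 genes had a higher mean. The unadjusted p of limma was 0.0325 and the adjusted p 1, and without replicate 2 the value is the male log2 ratio of 1.18, with no test. With the arrays centred on their medians in place of the loess fit, the female log2 ratio of Rgs4 was -0.02.

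Of the R4 group of RGS proteins, 7 of 10 genes were measured. Rgs4 was the 1 that read higher on both arrays, and 2 read lower, Rgs16 at -0.16 and -0.53 and Rgs8 at -0.33 and -0.14. The median of the group was -0.027 (-0.071 in males and -0.014 in females) and 0 passed the test. By Euclidean distance over the 2 arrays, the genes whose pair of ratios lay nearest to that of Rgs5, among 187 genes of the further lists, were Nrarp (0.08 and -0.25, distance 0.023), Higd2a (0.11 and -0.24, 0.038) and Mylk (0.03 and -0.19, 0.057). With 2 arrays, closeness of such pairs describes these values only, and the other probe of Mylk had -0.03 and 0.19.

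**Figure D2:**
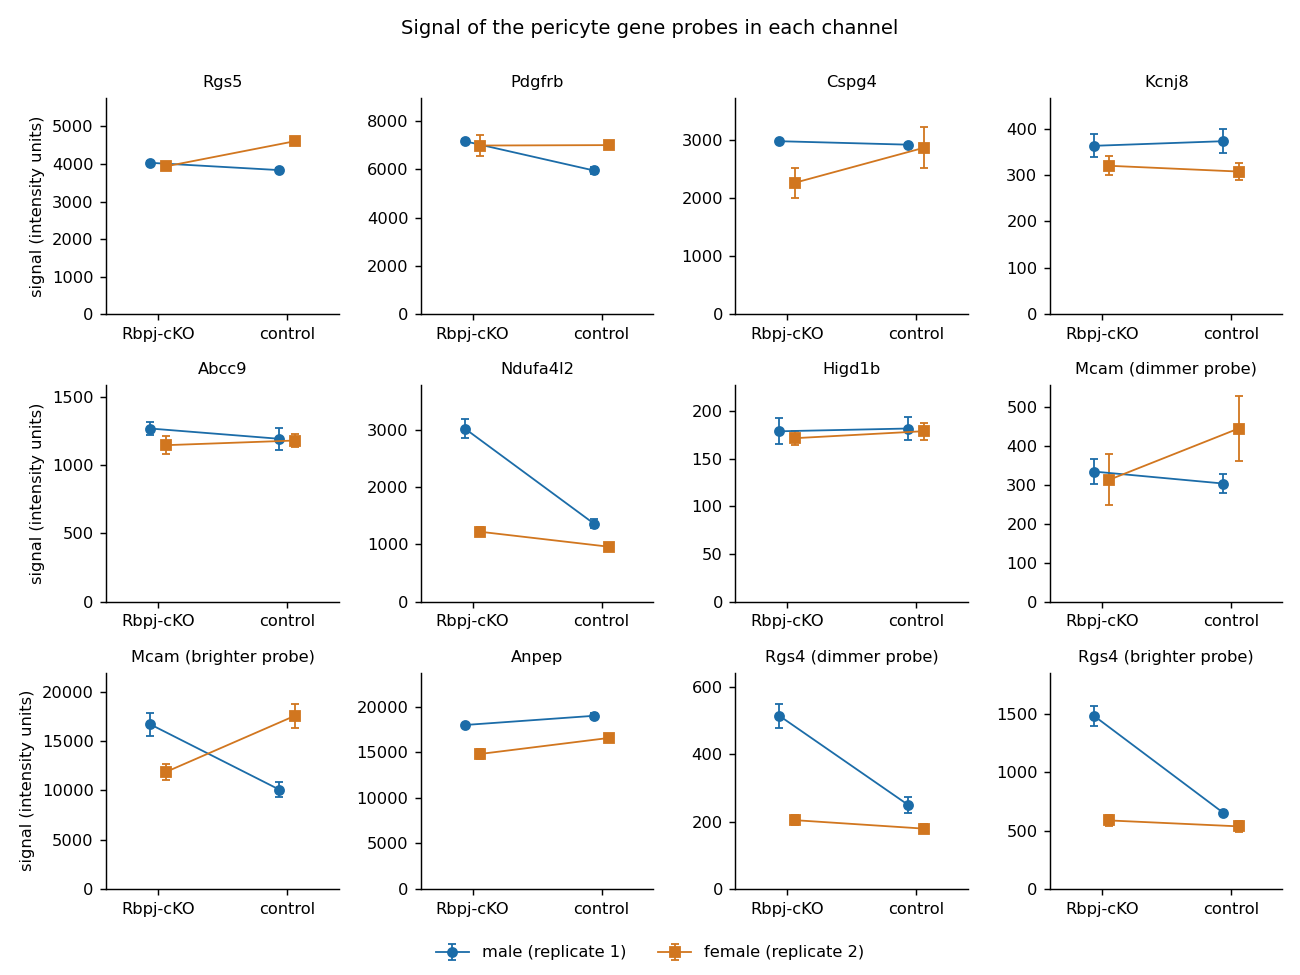
Normalized signal (linear, from 0) of the 12 probes of the 10 pericyte genes in each channel, Rbpj-cKO left of control, with males as circles and females as squares, and bars for the SD over the spots. Ndufa4l2 and both Rgs4 probes have 1 channel that stands apart, male Rbpj-cKO, while Kcnj8, Abcc9 and Higd1b are close to level.

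Ndufa4l2 and Higd1b encode small mitochondrial proteins of low-oxygen metabolism that mark pericytes of many organs. Ndufa4l2 replaces Ndufa4 in the respiratory chain and is also known from glomus cells of the mouse carotid body. Ndufa4l2 had signals of 3018 in male and 1218 in female Rbpj-cKO, against 1360.4 in male and 956 in female control. The male Rbpj-cKO channel stood far above the other 3, and the female Rbpj-cKO channel was above its own control and below the male one. The spots of a channel differed by SDs of 161 and 76.0 in male and female Rbpj-cKO, and of 71.3 and 62.7 in control, so the ratio of each pair was larger than the spread between spots.

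Ndufa4l2 had the highest mean ratio of the 10 genes. It read 2.22-fold higher in males and 1.27-fold in females, a mean log2 ratio of 0.75 ± 0.57 (SD, n = 2) or 1.68-fold, with a 95% interval of 0.26 to 1.24. Its unadjusted p was 0.00868 and its adjusted p 1 (limma), and 64 of 20495 genes had a higher mean. Without replicate 2 the value is the male log2 ratio of 1.15, with no test. The probe lies at chr10:126954149-126954208 (mm9, plus strand).

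Higd1b, the pericyte member of a family of hypoxia-inducible membrane proteins, had signals of 178.6 in male and 171 in female Rbpj-cKO, against 181 in male and 178.7 in female control. Both Rbpj-cKO channels lay just below both control channels, as they did for 8.45% of all genes. The spots of a channel differed by SDs of 13.6 and 7.29 in male and female Rbpj-cKO, and of 12 and 8.87 in control, more than the genotypes did in males and about as much in females. The log2 ratios were -0.02 and -0.06, with a mean of -0.04 ± 0.03 (SD, n = 2), a 95% interval of -0.35 to 0.27 and an adjusted p of 1 (limma). Its probe lies at chr11:102699294-102699353 (mm9, plus strand). The difference between the ratios of the 2 mitochondrial markers was not tested.

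The paralogs of the 10 genes give 20 measured genes of 21 on the list, of which 3 read higher on both arrays, 4 read lower and 0 passed, around a median of -0.019 (-0.054 in males and 0.004 in females). Ndufa4, the common form of the subunit, had -0.26 and 0.28, and Higd1a, the common form of its family, 0.06 and 0.01. Kit and Csf1r, receptors of the same family as Pdgfrb, had -0.17 and -0.35, and 0.46 and 0.04, where the other probes of Csf1r had opposite signs on the arrays. Higd1c, chosen after its value was seen and known from carotid body glomus cells, had signals of 519.9 in male and 155 in female Rbpj-cKO, against 169.96 in male and 165 in female control, which is a log2 ratio of 1.61 in males and -0.09 in females. Cox4i2, a mural cell subunit of the respiratory chain also chosen after its value was seen, had 0.28 and 0.14.

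Ndufa4l2, Rgs4 and Higd1c stood apart in the same channel as genes of sympathetic neurons and chromaffin cells. Of 18 measured genes of neurons and glia, 12 read higher and 0 lower on both arrays, against 16.1% and 14.7% of all genes. Of the 18, 0 passed the test, and their median log2 ratio was 0.19 in males and 0.83 in females. Their summed signal was 204805 in male and 137075 in female Rbpj-cKO, against 124324 in male and 106419 in female control. In that sum, Chgb alone had 50570 in male and 8492 in female Rbpj-cKO, against 7089 in male and 4971 in female control. The catecholamine and granule genes of that list had larger ratios in males than in females, as did Ndufa4l2 and Rgs4: Th had 1.55 and 0.23, Dbh 1.83 and 0.70, Chga 2.11 and 0.95, and Chgb 2.83 and 0.77. These 4 genes were chosen after their values were seen. Their part in the values of Ndufa4l2 and Rgs4 was not tested.

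**Figure D3:**
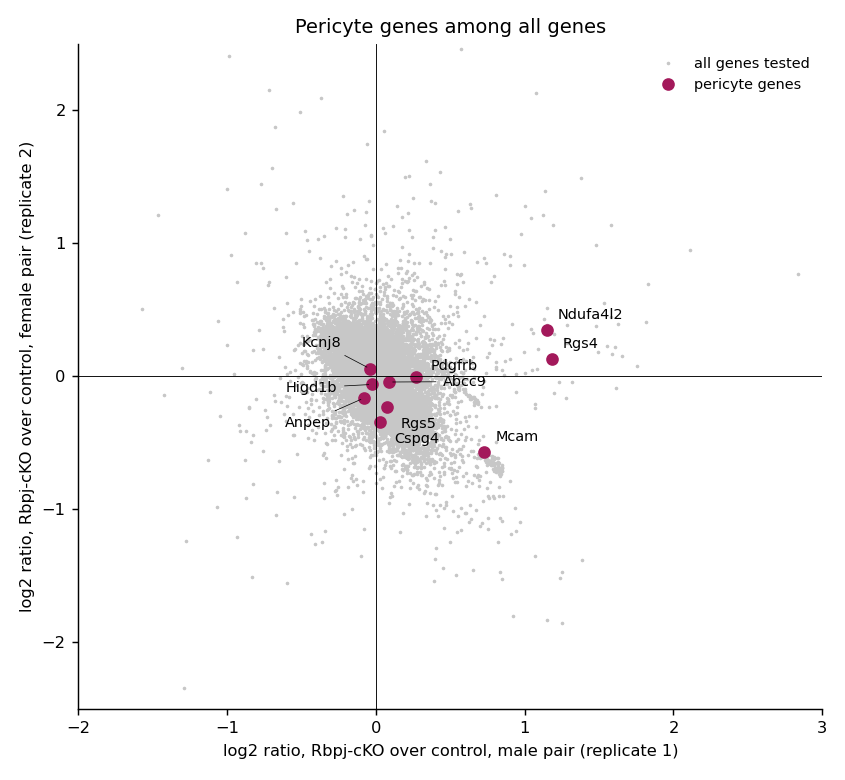
Log2 ratio of Rbpj-cKO over control on the male array (horizontal) against the female array (vertical) for all 20495 genes, with the 10 pericyte genes marked, and 5 genes outside the axes. Ndufa4l2 and Rgs4 lie at the right of the cloud and above 0, Mcam at the lower right, and the other 7 genes within the cloud.

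Mcam and Anpep encode proteins of the cell surface. Mcam (CD146) is an adhesion molecule of pericytes, smooth muscle and endothelium, and its 2 probes gave different values. The dimmer probe, at chr9:43949385-43949444 (mm9, plus strand), had signals of 334 in male and 314 in female Rbpj-cKO, against 304 in male and 445 in female control. The female control channel stood above the other 3. Its log2 ratios were 0.14 and -0.51, with a mean of -0.18 ± 0.46 (SD, n = 2). The 95% interval was -0.60 to 0.24 in the fit per probe. The brighter probe, at chr9:43950664-43950723 (mm9, plus strand), had 16718.5 in male and 11870.0 in female Rbpj-cKO, against 10086 in male and 17582 in female control. Its log2 ratios were 0.73 and -0.57, with a mean of 0.08 ± 0.92 (SD, n = 2). Its 95% interval was -0.57 to 0.73 in the fit per probe and -0.60 to 0.76 in the fit per gene. By both probes males read higher and females lower in Rbpj-cKO, and the sign of the mean differs between them.

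The brighter Mcam probe holds a run of TG units that the other 11 member probes do not have. Of its 60 bases, 30 are shown from base 17 on, with the run of 9 units in capitals, because probes with such a run shared its ratios.
Mcam: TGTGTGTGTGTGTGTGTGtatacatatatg
The other members' probes have at most 2 units in a row. A total of 101 further probes, of 101 genes, hold at least 6 units in a row. Their median log2 ratio was 0.77 in males and -0.64 in females, and 101 of 101 read higher in males and lower in females. Among the 18305 probes with at most 1 unit, the medians were -0.013 and 0.012, and 5791 had that pair of signs. Probes with at least 6 units stood for 95 of the genes tested, 0.464%. They also stood for 73 of the 147 genes, 49.7%, that differed at least 1.5-fold in opposite directions on the arrays. They stood for 0 of the 40 genes that differed by that much with 1 sign on both arrays. This comparison was chosen after the values were seen. The ratios of 0.73 and -0.57 lie within the ranges of the probes with at least 6 units, 0.08 to 0.90 in males and -0.79 to -0.08 in females. As the brightest, this Mcam probe stood for the gene in the members' median, sign counts and fit. Whether it measures Mcam RNA was not tested.

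Anpep, aminopeptidase N (CD13), marks pericytes and also the brush border of the kidney's proximal tubule and myeloid cells. It had signals of 17984 in male and 14809.7 in female Rbpj-cKO, against 18993 in male and 16571 in female control. Each Rbpj-cKO channel was below its own control, and the genotypes overlapped across the arrays. The log2 ratios were -0.08 and -0.16, with a mean of -0.12 ± 0.06 (SD, n = 2), a 95% interval of -0.43 to 0.19 and an adjusted p of 1 (limma). Its probe lies at chr7:86966716-86966775 (mm9, minus strand). With median centring the male log2 ratio of Anpep was 0.14. Of the 8 measured proximal tubule genes, 1 read higher on both arrays and 2 read lower. Their median was 0.010 (0.019 in males and -0.064 in females). Of 15 macrophage genes 8 read higher and 0 lower on both arrays, against 16.1% and 14.7% of all genes. The macrophage medians were 0.37 in males and 0.0030 in females. The part of these cells in the signal of Anpep was not tested.

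The male and female pairs differed most for Mcam, Rgs4 and Ndufa4l2. As a measure of that difference, each probe's male minus female log2 ratio was divided by 2, and set beside probes whose base composition was within 1 percentage point of GC. For the brighter Mcam probe it was 0.65, where the 10th and 90th percentiles of 6272 like probes were -0.23 and 0.15. For the dimmer it was 0.32, against -0.16 and 0.25. For Ndufa4l2 it was 0.40, against -0.18 and 0.22 over 1731 probes. For the Rgs4 probes it was 0.53 and 0.43, against 90th percentiles of 0.25 and 0.15. Within these percentiles of their like probes lay Rgs5 (0.15), Pdgfrb (0.14), Cspg4 (0.18), Abcc9 (0.07), Anpep (0.04), Higd1b (0.02) and Kcnj8 (-0.05).

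**Figure D4:**
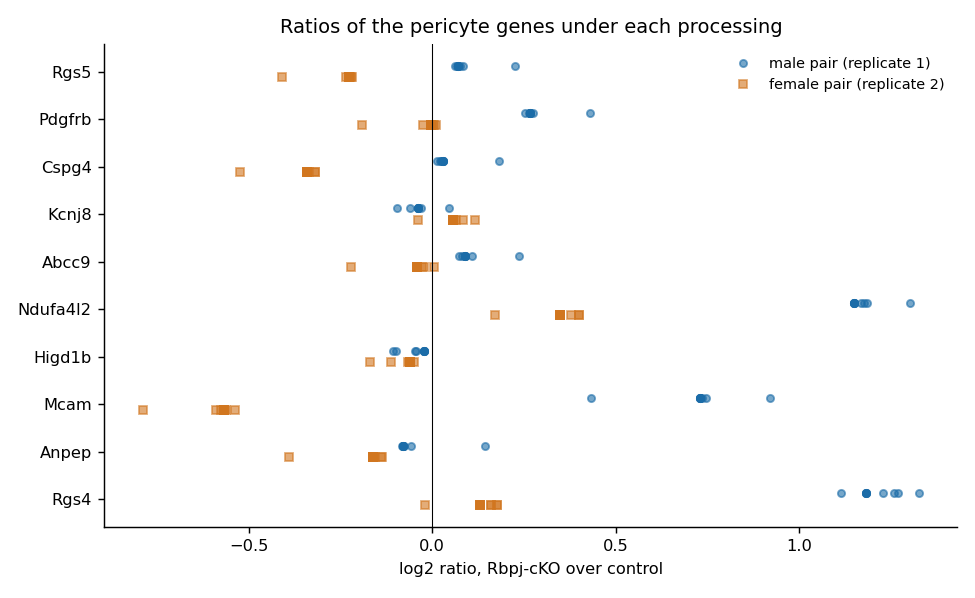
Log2 ratio of Rbpj-cKO over control of each array for the 10 pericyte genes under 10 ways of processing the same spots. Ndufa4l2 lies above 0 on both arrays under all 10, and Rgs4 under 9 of them, with the female value at -0.02 under median centring.

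Other genes of vascular mural cells were read beside the 10. Of 30 genes, 26 were measured, 7 read higher and 5 lower on both arrays, and 0 passed the test. Across all genes 16.1% read higher and 14.7% lower. An unadjusted p under 0.05 (limma) was found for 3 of the 26, against 1.82% of all genes. The median was 0.027, with 0.11 in males and -0.017 in females. Gucy1a1 and Gucy1b1, the subunits of the soluble guanylate cyclase through which nitric oxide relaxes mural cells, read higher together. Gucy1a1 had signals of 12197 in male and 13338 in female Rbpj-cKO, against 8438 in male and 8679 in female control, and both Rbpj-cKO channels lay above both controls, as for 10.3% of all genes. Its log2 ratios were 0.53 and 0.62, with a mean of 0.58 ± 0.06 (SD, n = 2), an unadjusted p of 0.00369 and an adjusted p of 1 (limma). Gucy1b1 had 2903 in male and 2776 in female Rbpj-cKO, against 2387 and 2149 in control, and log2 ratios of 0.28 and 0.37. Among the 4 of the list furthest from 0 were also Ebf1, a transcription factor of pericytes, at -0.14 and -0.65, and Tbx2, at 0.17 and 0.52.

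Of the 11 Notch genes of mural cells, 5 read higher and 0 lower on both arrays, against 16.1% and 14.7% of all genes. Of the 11, 0 passed the test, and their median was 0.18 (0.077 in males and 0.18 in females). Notch3, the Notch receptor of mural cells, had signals of 13598 in male and 13308 in female Rbpj-cKO, against 11343 in male and 12458 in female control, or log2 ratios of 0.26 and 0.10. The target genes Hey1 (0.81 and 1.36) and Hey2 (0.86 and 0.92) were the 2 of that list at least 1.5-fold higher on both arrays. Of all genes, 0.132% were. The ligand Jag1 had 0.29 and 0.45 and Notch1 0.36 and 0.18. The target genes Heyl (-0.47 and 0.11), Hes1 (-0.24 and 0.48) and Nrarp (0.08 and -0.25) had opposite signs on the arrays. Heyl and Hes1 were chosen after their values were seen. None of the 10 pericyte genes was at least 1.5-fold higher on both arrays.

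Endothelium and smooth muscle are the cell types that neighbour pericytes in the vessel wall. Of the 20 endothelial genes 3 read higher and 3 lower on both arrays around a median of 0.028 (-0.0072 in males and 0.031 in females), and they had a summed signal of 148749 in male and 144522 in female Rbpj-cKO, against 144928 in male and 139822 in female control. Cdh5, the cadherin of endothelial junctions, had 0.15 and -0.03, and Pecam1 (CD31) 0.21 and -0.49. The furthest from 0 with 1 sign were Tek, given above, Ramp2 at 0.09 and 0.17, Emcn at 0.11 and 0.09 and Cldn5 at -0.01 and -0.11. Of 16 smooth muscle genes 14 were measured, 2 read higher and 3 lower on both, and the median was -0.064 (0.036 in males and -0.17 in females). Acta2, the actin of smooth muscle and of some pericytes, had 0.52 and -0.77, and Myh11, a late smooth muscle myosin, 0.04 and -0.14. Myocd, the coactivator of the smooth muscle program, had -0.67 and -1.04 with an adjusted p of 0.651 (limma), and Cnn1, Synpo2 and Actg2 had -0.29 and -0.31, 0.08 and 0.59 and -0.16 and -0.34.

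**Figure D5:**
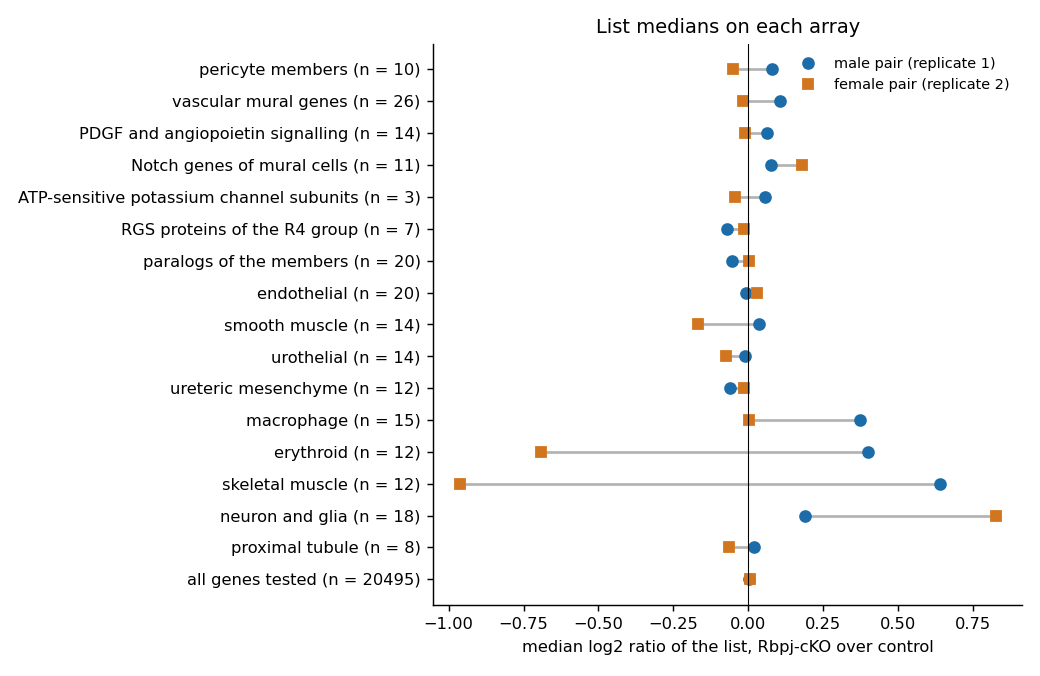
Median log2 ratio of Rbpj-cKO over control on each array for the 10 pericyte genes, 15 other gene lists and all genes tested. The pericyte genes lie at 0.080 in males and -0.051 in females, close to all genes, while erythroid genes lie at 0.40 and -0.69 and skeletal muscle genes at 0.64 and -0.96.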

How the data were processed

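Levels were measured in ureter RNA of 2 Rbpj-cKO and 2 control channels on 2 arrays. Per the file headers, each spot has a deposited mean intensity and a local background intensity in either colour, linear and not normalized. The processed intensity, used for the Y-linked genes and as an alternative, is the scanner software's value after background subtraction and dye normalization, per the file headers. Flags for background, saturation and outliers were deposited as other values of 0 or 1, per the file headers. Per the submitters' processing notes, the scanner software was Agilent Feature Extraction 10.7.3.1. The series table deposited by the authors was read as a score, the fold of Rbpj-cKO against control with a sign for its direction. It holds 0 values between -1 and 1, both medians are 1, and on a log2 scale it correlated with the processed ratios (r = 0.781 and 0.849 across probes). How it was made is not given in the sources used.

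Both arrays were corrected with limma's normexp (offset 50) and loess, with weight 0 for the 17263 control spots (limma 3.58.1, R 4.3.3). Outlier spots (3.57% and 3.9%) were left out, the 4 spots of a probe were averaged, and the ratio of replicate 2 was turned for its dyes. Signals per channel are those after Aquantile scaling between the arrays. The filter asked for 2 of 4 spots well above background in at least 1 channel of each array (26980 probes passed), and the brightest probe stood for a gene. On the arrays 69.3% and 68.1% of spots were well above background in Rbpj-cKO and 70.1% and 67.7% in control, and 0 were saturated. Mean log2 ratios were tested against 0 with limma's lmFit and eBayes (two-sided, Benjamini-Hochberg over all genes), with 1 residual and 5.57 prior degrees of freedom. The number of arrays limits the precision. The procedure was also run on simulated spots, in which genes deviated independently on each array. Those spots lack the opposed ratios of the real arrays, so that run cannot show how the procedure behaves under them.

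The pericyte genes and all further lists were chosen with earlier results of these data known. The text names all probes of the 10 genes, Rbpj and Tbx18, up to 4 genes of each of 8 further lists with the largest absolute mean among those with 1 sign on both arrays, 11 set genes, and the 3 genes nearest to Rgs5. Other genes are marked as chosen with their values in view. Names and promoter windows came from RefSeq tables on another build than the array's mm9 coordinates, and no coordinates were converted. Pdgfrb, Ndufa4l2 and Higd1b had no window there. Where a probe lies within its transcript was not analysed here.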

Additional observations from a re-analysis of the deposited data

Results flagged for a closer look

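For 6 of the 10 pericyte genes the male and the female pair had opposite signs, as 69.2% of all genes did. Subtracting the female from the male log2 ratio gave 1.30 for Mcam, 0.370 for Cspg4, 0.298 for Rgs5, 0.271 for Pdgfrb, 0.131 for Abcc9 and -0.0959 for Kcnj8. With 1 array per sex these differences were not tested, and sex and dye orientation cannot be told apart. Mcam lay furthest apart by its brighter probe, the one with the run of TG units, and by its dimmer probe the ratios were 0.14 and -0.51.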

How the results depend on the processing

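Under 10 other settings fitted over the whole table, 0 of the pericyte genes passed, with adjusted p between 0.964 and 1 (limma). The mean log2 ratio of Ndufa4l2 ranged from 0.74 to 0.79 and that of Rgs4 from 0.62 to 0.72. Median centring in place of loess left 1 gene higher on both arrays, Ndufa4l2, and 1 lower, Higd1b. Under 5 settings 3 genes or probes read higher on both, with Pdgfrb added under Agilent's processed signals, normexp offset 10 and outlier spots kept, Abcc9 added with the authors' deposited table, and Rgs4 counted by both probes in the test per probe. The mean of Mcam was -0.05 as the mean of its probes and -0.18 by its dimmer probe. Without 1 or the other replicate, the members' median ran from -0.051 to 0.080, 3 to 7 of them read higher and 3 to 7 lower on the array left (counts chosen after seeing the data), and the values were -0.23 to 0.071 for Rgs5, -0.0036 to 0.27 for Pdgfrb, -0.34 to 0.029 for Cspg4, -0.039 to 0.057 for Kcnj8, -0.042 to 0.088 for Abcc9 and -0.57 to 0.73 for Mcam. Over all genes, limma called 1 with Agilent's processed signals and 5 with an intensity trend and robust moderation, against 0 otherwise, where 172 to 501 genes had an unadjusted p under 0.05. Counts of genes past 1.5-fold with 1 sign on both arrays were 88 with the processed signals and 85 with the authors' deposited table, against 40. The causes were not tested. The ratio within an array is already the paired comparison of the genotypes, so no further replicate block could be added. With 2 arrays the narrowest 95% interval among the pericyte genes, that of Higd1b, still ran from -0.35 to 0.27 on the log2 scale.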
